A study of Mus musculus with 8 samples.

Results

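The genes described here are 55 axoneme and intraflagellar transport genes, picked out by symbol from the 23235 gene symbols with deposited values. They fall into 11 dynein heavy chains (Dnahc), 5 dynein intermediate and light chains (Dnaic, Dnalc and Dnali1), 5 tektins (Tekt), 6 radial spoke genes (Rsph), 8 outer dense fibre genes (Odf), 2 subunits of the intraflagellar transport complex IFT-A and 10 of IFT-B (Ift), and 8 Bardet-Biedl syndrome genes (Bbs). Subunits of the same machines that carry other symbols are outside the 55 and are described through separate lists. Of the 55 members, 51 passed the filter on low values (FPKM above 1 in at least 1 library), as did 15899 of all symbols. Dnahc5, Dnahc9, Odf3l2 and Rsph4a did not pass.

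The sperm tail is built on an axoneme, a ring of paired microtubules around a central pair, in which dynein arms make the microtubules slide and radial spokes pass signals from the central pair to the arms. Tektins run along the microtubules, and in mammalian sperm the axoneme is wrapped in outer dense fibres and a fibrous sheath. Intraflagellar transport moves building material along a growing cilium or flagellum, with IFT-B carried outward by a kinesin and IFT-A needed for the return by a dynein, while the BBSome is an adaptor that loads membrane proteins onto the same trains. Many tail genes are known to be transcribed in spermatocytes, well before the tail is assembled in spermatids.

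RNA was sequenced from spermatocytes sorted by flow cytometry from testes of C57BL/6 mice aged 6 weeks, with 2 libraries in each of 4 groups. The groups are WT and Cnot4-null cells (Cnot4-KO in the labels) at LZ, which joins leptotene and zygotene, and at PD, which joins pachytene and diplotene. Cnot4-null mice carry Cnot4 fl/fl;Stra8-Cre, in which a Cre driven by the Stra8 promoter removes exon 2 in germ cells, so other cells of the testis keep the gene. Cnot4 encodes a ubiquitin ligase that associates with the CCR4-NOT deadenylase complex, and the design asks how its loss changes the transcriptome of meiotic prophase. The paper calls the libraries of a group biological replicates, and the labels do not say whether they came from separate animals, so the p-values measure the spread between these samples. An exact permutation test of 2 libraries against 2 cannot go below p = 0.333, and the tests used are limma's, fitted across all genes.

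Levels of Cnot4 itself at LZ were 36.0 and 34.9 FPKM (WT) and 43.2 and 34.6 FPKM (Cnot4-null), and those at PD were 76.6 and 73.1 FPKM (WT) and 65.9 and 53.5 FPKM (Cnot4-null). The level of the whole gene cannot check the genotype, since a transcript without exon 2 may still be counted. The read count of each library is not in the deposited values, and the paper's supplement lists total reads. No depth is given beside a value here.

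In WT cells the members stood low at LZ and high at PD. The median member had 3.54 and 5.85 FPKM in the WT LZ libraries against 36.5 and 35.4 FPKM in the WT PD libraries, and the members' share of the summed FPKM went from 0.0840% and 0.110% to 0.850% and 0.774%. In Cnot4-null cells the median member had 3.60 and 2.79 FPKM at LZ against 28.0 and 17.6 FPKM at PD, where the members' share of the summed FPKM was 0.559% and 0.378%. Both Cnot4-null PD libraries thus lay between the LZ and the WT PD libraries, and library 2 lay below library 1. Library 1 held the higher value for 47 of the 51 members tested in Cnot4-null PD, against 52.7% of all genes tested. In WT PD it did so for 40 of 51, against 51.7% of all genes tested.

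**Figure D1:**
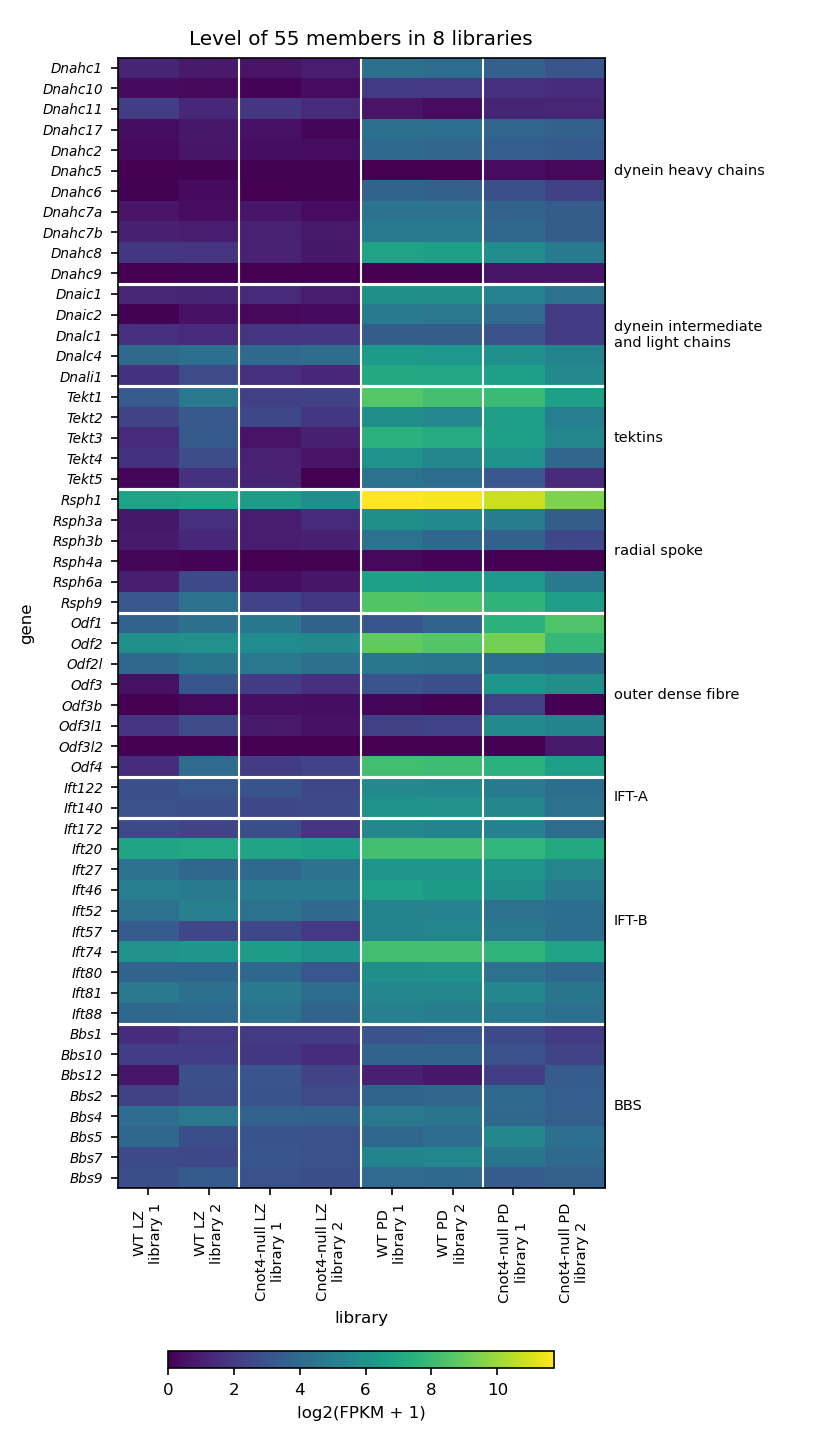
Level of the 55 members (vertical axis, grouped by role) in each of the 8 libraries (horizontal axis), coloured by log2(FPKM + 1). The PD libraries of WT are the brightest for most members, Rsph1 is the brightest at 3406 and 3091 FPKM in WT PD, and Odf1, Odf3 and Odf3l1 are brightest in Cnot4-null PD.

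Between LZ and PD in WT cells, 40 of the 51 members tested rose and 1 fell (limma, adjusted p under 0.05), while 21.6% of all genes tested rose and 36.2% fell. The median log2 change of FPKM + 1 was 2.46 over the members and -0.32 over all genes tested. Both PD values were above both LZ values for 43 members and below them for 1, against 31% and 50.2% of all genes. Quantile normalization moved the median of all genes to -0.06 and called 41 members higher, and rescaling each library to the same median moved it to -0.12 and called 43 higher. Dnahc2, Dnahc6, Dnahc7a, Dnahc10, Dnahc17 and Dnaic2 passed the filter through PD libraries of the 2 genotypes and through no LZ library, so these 6 had to differ between the stages, and Odf3b passed through Cnot4-null PD alone. Without these 7 members, 34 of 44 rose and 1 fell, against 21.4% and 43.5% of all genes that passed through both stages. In bulk samples, fewer cells of a type and less RNA per cell cannot be told apart.

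Of the 9 dynein heavy chains tested, the motor subunits of the arms, 8 rose and 1 fell, against 21.6% and 36.2% of all genes tested. Of the 4 that passed the filter through both stages 3 rose and 1 fell. Dnahc8, an outer arm chain of the sperm tail, had 2.69 and 2.41 FPKM in the WT LZ libraries and 107 and 100.2 FPKM in the WT PD libraries, a log2 change of 4.88 ± 0.31 (SE, n = 2 libraries per group, limma adjusted p = 3.01e-05). Its PD values were far above its LZ values, and it was the heavy chain with the highest levels at PD. Dnahc11, an outer arm chain known from motile cilia, went the other way, with 3.42 and 1.58 FPKM in WT LZ and 0.526 and 0.330 FPKM in WT PD. Its change was -1.25 ± 0.33 (adjusted p = 0.0141), but the adjusted p was 0.072 without WT LZ library 1, 0.0593 without WT PD library 1 and 0.0936 without WT PD library 2, and no member was called lower after quantile normalization, where Dnahc11 was still lower in PD. Dnahc5 and Dnahc9, likewise known from motile cilia, were listed at no more than 0.0249 and 0.0432 FPKM in WT PD.

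The 5 intermediate and light chains, which anchor and tune the arms, all rose, against 21.6% of all genes tested. Dnaic2 passed the filter through PD libraries alone, and of the 4 that passed through both stages 4 rose. Dnaic1, an outer arm intermediate chain, had 1.43 and 1.35 FPKM in the WT LZ libraries and 57.0 and 55.5 FPKM in the WT PD libraries (log2 change 4.58, adjusted p = 4.09e-05). Dnali1, of the inner arms, had 2.15 and 5.71 FPKM in the WT LZ libraries and 135 and 125 FPKM in the WT PD libraries (4.83, adjusted p = 1.09e-04). Their groups are far apart, and the other 3 rose by 1.93 (Dnalc1), 2.12 (Dnalc4) and 4.45 (Dnaic2).

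The 5 tektins and the 5 radial spoke genes tested all rose as well, against 21.6% of all genes tested. Tekt3 had 1.72 and 9.11 FPKM in the WT LZ libraries and 181 and 151 FPKM in the WT PD libraries, a change of 4.99 ± 0.64 (adjusted p = 4.49e-04). Rsph1, a part of the spoke head and the most abundant member, had 111 and 117 FPKM in the WT LZ libraries and 3406 and 3091 FPKM in the WT PD libraries, a change of 4.82 ± 0.44 (adjusted p = 1.00e-04). Rsph9, of the same head, had 8.01 and 20.5 FPKM in the WT LZ libraries and 373 and 338 FPKM in the WT PD libraries (4.68). In each of the 5 spoke genes tested every LZ value was below every PD value, and Rsph1 was already abundant at LZ. Rsph4a was at no more than 0.186 FPKM in any library.

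Of the 7 outer dense fibre genes tested, 2 were called higher in WT PD, against 21.6% of all genes tested. Odf4 had the largest rise of any member, from 1.89 and 16.2 FPKM in WT LZ to 288 and 276 FPKM in WT PD (5.32 ± 0.74, adjusted p = 6.51e-04). Odf2, the main scaffold of the fibres and also a centrosomal protein, went from 58.2 and 60.2 FPKM to 460 and 380 FPKM (2.80, adjusted p = 9.93e-04). Odf1, a keratin-like core protein of the fibres, had 11.7 and 19.4 FPKM in the WT LZ libraries and 7.82 and 12.9 FPKM in the WT PD libraries, and these values overlap (-0.54, adjusted p = 0.371). Odf3 and Odf3l1 were not called either (1.14, adjusted p = 0.231, and 0.04), and without WT LZ library 2, the higher of the pair at 7.77 FPKM, the change of Odf3 was 2.45 (adjusted p = 0.00276).

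Among transport genes the median change was 2.77 for the 2 IFT-A subunits, 1.81 for the 10 IFT-B subunits and 1.13 for the 8 Bardet-Biedl genes, and differences between subgroups were not tested. Ift140, of IFT-A, had 6.64 and 6.39 FPKM in the WT LZ libraries and 64.1 and 60.8 FPKM in the WT PD libraries (3.08 ± 0.30, adjusted p = 1.23e-04). Ift122, the other IFT-A subunit, rose by 2.46. In IFT-B 8 of 10 rose, against 21.6% of all genes tested. The rises ran from Ift88 (1.04, adjusted p = 0.0163) to Ift172 (2.84 ± 0.42, adjusted p = 8.34e-04). Ift52 (0.44) and Ift81 (0.92, adjusted p = 0.0505) were not called. Ift20 and Ift74, the IFT-B genes with the highest levels, were present at LZ with at least 116 and 59.9 FPKM in WT and stood at 288 and 289 FPKM and at 292 and 287 FPKM in WT PD. The call for Ift88 was lost without WT LZ library 1, WT LZ library 2, WT PD library 1 or WT PD library 2, with adjusted p from 0.0639 to 0.0977. Without either Cnot4-null PD library the adjusted p of Ift81 was 0.0334 and 0.033.

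Among the 8 Bardet-Biedl genes 5 rose in WT, against 21.6% of all genes tested. Bbs7, a subunit of the BBSome, had 5.20 and 4.73 FPKM in the WT LZ libraries and 38.0 and 41.1 FPKM in the WT PD libraries (2.77 ± 0.24, adjusted p = 8.18e-05), and its values do not overlap. The rises of Bbs10 (1.62), Bbs1 (1.31), Bbs2 (1.27) and Bbs9 (0.99) were smaller, and Bbs4, Bbs5 and Bbs12 were not called. The adjusted p without WT PD library 2 was 0.0558 for Bbs1, 0.0539 for Bbs2 and 0.0593 for Bbs9, and for Bbs9 it was 0.0517 without WT LZ library 1 and 0.072 without WT PD library 1. Bbs12 had 0.653 and 6.18 FPKM in the WT LZ libraries and 1.08 and 0.712 FPKM in the WT PD libraries, and without WT LZ library 1 its change was -1.93 (adjusted p = 0.0417).

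Between LZ and PD in Cnot4-null cells, 36 of the 51 members rose and 0 fell, and 0 were lower at an unadjusted p under 0.05 (limma), while 27.8% of all genes tested rose and 18.2% fell. Of the 44 members that passed the filter through both stages 30 rose, against 23.6% of all such genes. The median log2 change was 2.25 over the members and 0.19 over all genes tested. Both stage comparisons called the same 32 members higher, 8 members were called in WT alone (Bbs1, Bbs9, Dnalc1, Ift20, Ift46, Ift80, Ift88 and Tekt5) and 4 in Cnot4-null alone (Bbs5, Odf1, Odf3 and Odf3l1). Quantile normalization moved the median of all genes in this comparison to -0.29 and that of the members to 1.68, with 33 members higher and 1 lower, and the higher share of all calls went from 60.5% to 37.4%. The 2 stage comparisons share no library, and the test of the difference between them is the interaction given further on.

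Subgroup by subgroup, the stage change in Cnot4-null cells had a median of 2.75 for heavy chains (8 of 9 called higher, and 3 of the 4 that passed through both stages). It was 2.79 for intermediate and light chains (4 of 5, and 3 of the 4 that passed through both stages) and 4.06 for tektins (4 of 5). All 5 radial spoke genes tested were called higher. Of all genes tested 27.8% were called higher, and of those that passed through both stages 23.6%. Medians were 3.89 for outer dense fibre genes (5 of 7), 2.04 for IFT-A (2 of 2), 0.62 for IFT-B (4 of 10) and 0.76 for Bardet-Biedl genes (4 of 8). Dnahc8 went from 1.09 and 0.706 FPKM in Cnot4-null LZ to 52.9 and 28.1 FPKM in Cnot4-null PD (4.39, adjusted p = 3.15e-04). The subgroups whose median was higher in Cnot4-null than in WT were the tektins (4.06 against 3.49) and the outer dense fibre genes (3.89 against 0.33). The median tektin level at LZ was 0.84 FPKM in Cnot4-null and 5.4 FPKM in WT. Between the genotypes at PD, 4 of 5 tektin estimates were under 0 and 1 above. In limma's interaction test 0 of 5 tektins were called (smallest adjusted p = 0.263). Without Cnot4-null PD library 2 the number of IFT-B genes called was 6, and without Cnot4-null LZ library 1, Cnot4-null LZ library 2 or Cnot4-null PD library 1 it was 3. For Bardet-Biedl genes it was 1 without any of the same 3 libraries and 2 without either WT PD library.

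**Figure D2:**
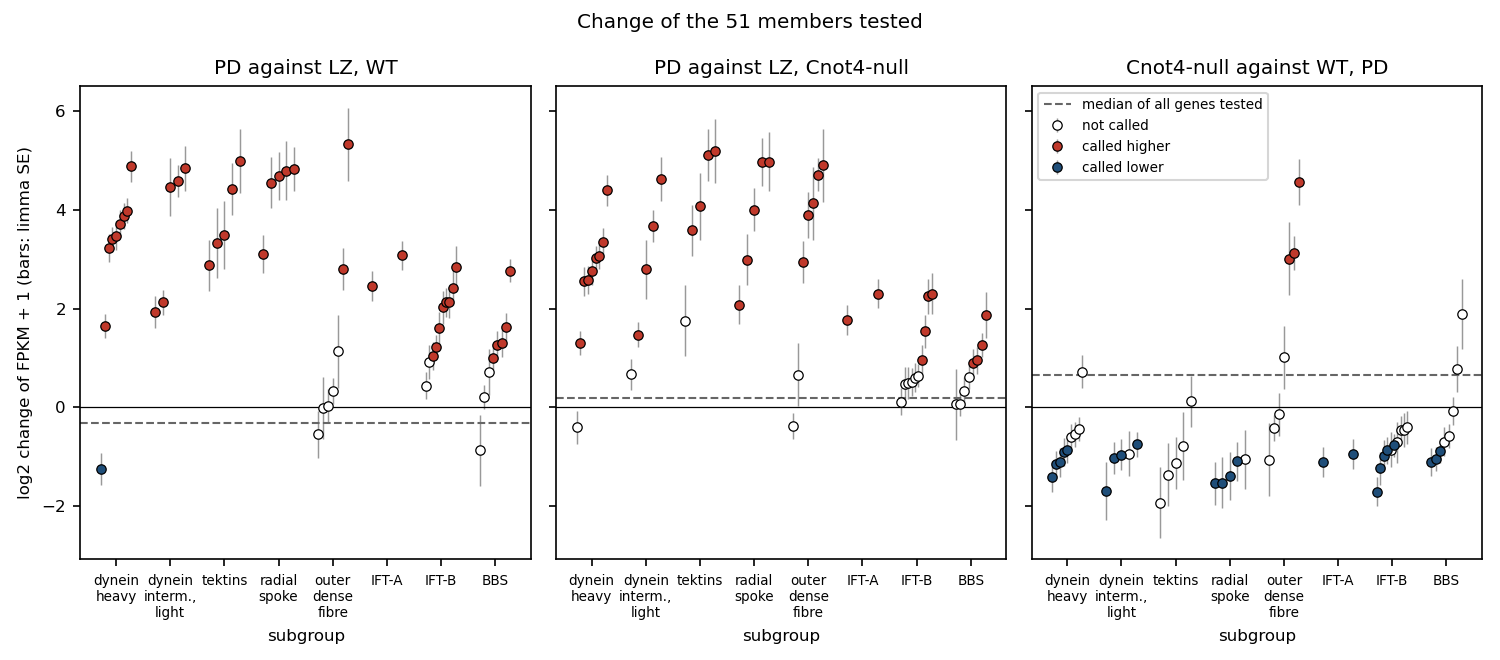
Log2 change of FPKM + 1 (vertical axis) of each of the 51 members tested, by subgroup (horizontal axis), for PD against LZ in WT, PD against LZ in Cnot4-null and Cnot4-null against WT at PD. Points are members, bars are limma standard errors, red is called higher, blue called lower and white not called, and the dashed line is the median of all genes tested. Most points lie above the dashed line in both stage panels, and 43 of 51 lie below 0 in the genotype panel, where that line is at 0.66.

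Since so many members rose together, their promoters were read for letters that spermatocyte and ciliary regulators are known to favour. Windows of 300 bases, from 250 before to 50 after the start, were in the RefSeq table (GRCm38.p6) for 48 members, with 56 windows for them and 32851 in all. Odf1, Odf3l2, Rsph1, Rsph4a, Ift80, Ift81 and Ift122 had no window. GTTGCC, a half-site of the X-box bound by RFX factors, was read on both strands and stood in 35.7% of the members' windows and in 12.5% of all windows. It covers 18 of the 48 members. GTTACC, the other form of the half-site searched, stood in 14.3% and 7.21%, and at least 1 of the 2 forms in 42.9% and 18.6%, which covers 22 of the 48 members. CAGTTG, the core bound by MYB factors, stood in 19.6% and 13.7% of windows, and TGACGTCA, the full element bound by CREM and its relatives, in 3.57% and 1.79%, with Dnahc6 and Ift57 as the members. A half-site stood in 19 of the 37 matched members that rose with stage in WT and in 3 of the other 11. It stood in 9 of the 20 matched members called lower in Cnot4-null PD and in 13 of the other 28. These are matches of letters and not bound sites. Overlap between motifs was not removed, nor was overlap between windows of the same gene, so a site can count more than once. Of the Tekt1 windows, only the one printed below holds a half-site.

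Windows of 5 members are printed because their genes are described with values here and each holds a half-site, 1 member from each of 5 roles. They read 5′ to 3′ on the strand of the gene in GRCm38.p6, from RefSeq, with the matched letters in capitals, where GGCAAC is GTTGCC on the other strand and CAACTG is CAGTTG on the other strand. Dnahc8 (RefSeq symbol Dnah8, chr17:30626686-30626985, plus strand) holds GTTACC and CAACTG, Tekt1 (chr11:72361833-72362132, minus strand) holds 3 half-sites, Odf3 (chr7:140847666-140847965, plus strand) GTTGCC, Ift140 (chr17:25015836-25016135, plus strand) GGCAAC and Bbs7 (chr3:36613340-36613639, minus strand) GTTGCC.
Dnahc8: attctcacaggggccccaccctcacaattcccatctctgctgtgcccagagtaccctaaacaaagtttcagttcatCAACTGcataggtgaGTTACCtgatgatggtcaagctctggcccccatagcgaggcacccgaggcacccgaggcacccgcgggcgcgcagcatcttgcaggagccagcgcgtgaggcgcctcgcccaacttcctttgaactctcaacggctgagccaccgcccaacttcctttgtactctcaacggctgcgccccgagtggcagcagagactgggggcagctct
Tekt1: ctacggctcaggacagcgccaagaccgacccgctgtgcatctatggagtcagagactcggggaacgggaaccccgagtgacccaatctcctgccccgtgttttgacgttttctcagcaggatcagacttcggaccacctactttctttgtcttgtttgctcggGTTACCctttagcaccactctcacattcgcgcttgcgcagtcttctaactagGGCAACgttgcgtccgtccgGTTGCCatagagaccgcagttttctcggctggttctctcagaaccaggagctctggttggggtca
Odf3: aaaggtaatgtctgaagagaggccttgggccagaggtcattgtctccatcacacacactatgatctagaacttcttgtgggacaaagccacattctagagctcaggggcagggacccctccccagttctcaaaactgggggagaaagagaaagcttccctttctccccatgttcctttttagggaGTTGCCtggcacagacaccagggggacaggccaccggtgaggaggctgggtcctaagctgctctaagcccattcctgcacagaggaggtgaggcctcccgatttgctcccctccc
Ift140: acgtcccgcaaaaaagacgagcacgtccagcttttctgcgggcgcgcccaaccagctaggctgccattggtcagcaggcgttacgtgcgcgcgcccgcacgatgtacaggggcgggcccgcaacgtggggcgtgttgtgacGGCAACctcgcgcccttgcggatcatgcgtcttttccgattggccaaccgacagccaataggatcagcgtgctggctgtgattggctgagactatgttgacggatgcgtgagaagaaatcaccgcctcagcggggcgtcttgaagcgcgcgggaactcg
Bbs7: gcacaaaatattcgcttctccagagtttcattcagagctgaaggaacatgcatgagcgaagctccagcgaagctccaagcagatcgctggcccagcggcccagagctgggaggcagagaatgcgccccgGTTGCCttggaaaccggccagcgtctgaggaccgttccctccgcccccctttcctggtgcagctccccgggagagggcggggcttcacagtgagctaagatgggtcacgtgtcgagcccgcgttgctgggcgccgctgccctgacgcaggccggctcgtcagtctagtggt

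Between WT and Cnot4-null cells at PD, 23 of the 51 members were lower in Cnot4-null and 3 were higher (limma, adjusted p under 0.05), while 11.5% of all genes tested were lower and 41.6% higher. The 23 comprise 5 of 9 heavy chains, 4 of 5 intermediate and light chains, 4 of 5 radial spoke genes, both IFT-A subunits, 5 of 10 IFT-B subunits and 3 of 8 Bardet-Biedl genes, and the 3 are the outer dense fibre genes Odf1, Odf3 and Odf3l1. The median log2 change was -0.87 over the members and 0.66 over all genes tested, a difference of -1.53. The values of the genotypes did not overlap with Cnot4-null the lower in 38 members and the higher in 6, against 23.1% and 58.2% of all genes. On the scale of FPKM + 1, the median member stood at 69.8% of its WT PD mean in Cnot4-null PD library 1 and at 45.2% in library 2. Of the 40 members that rose with stage in WT, 21 were called lower in Cnot4-null PD, and Bbs4 and Ift52 were called lower without a stage call. Both comparisons use the WT PD libraries, with opposite sign, so a high value there favours both calls. The matching share of all genes that rose with stage is not given, so this overlap is a description alone.

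These calls depend on the libraries present. Without WT PD library 1 or without WT PD library 2, 1 member was called lower, Ift80, and 2 higher, Odf1 and Odf3l1. The number called lower was 9 without Cnot4-null PD library 2, and 15 without WT LZ library 1, Cnot4-null LZ library 1 or Cnot4-null LZ library 2. A group left with 1 library is assumed to vary like the others. The values are reported as deposited. Quantile normalization moved the median of all genes from 0.66 to -0.10 and rescaling each library to the same median moved it to 0.42, and these called 31 and 37 members lower and 3 higher each, with 22 and 23 of the 23 among them. As deposited, 78.3% of the calls over all genes were higher, against 41.0% after quantile normalization and 60.3% after rescaling.

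**Figure D3:**
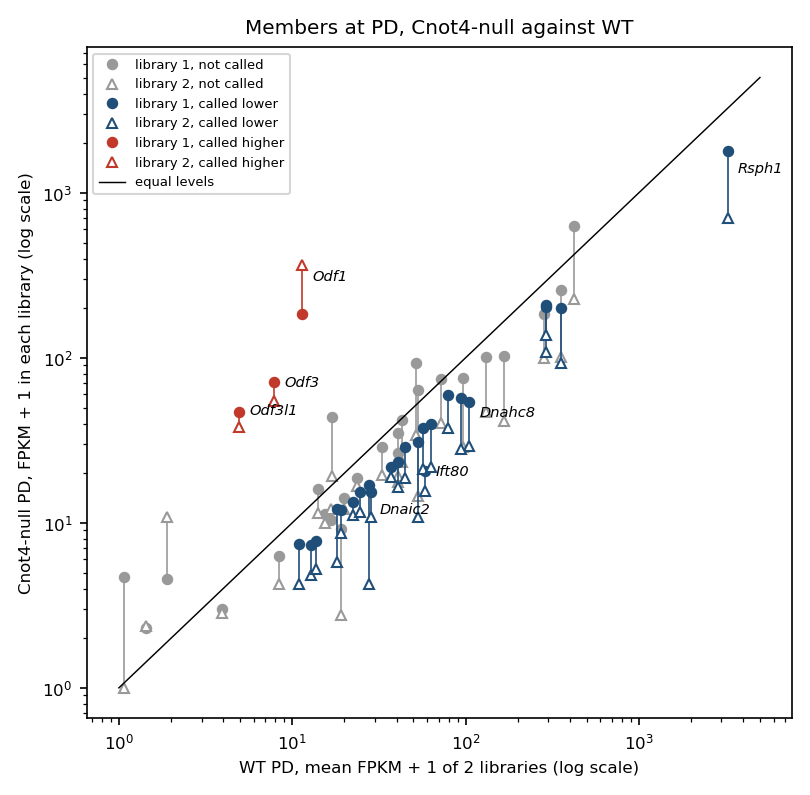
Level of the 51 members tested at PD, with the WT mean of FPKM + 1 on the horizontal axis and FPKM + 1 in Cnot4-null library 1 (circles) and library 2 (triangles) on the vertical axis, both logarithmic. Blue members are called lower, red higher and grey not called, and the line marks equal levels. Most members lie under the line with library 2 the lower, while Odf1, Odf3 and Odf3l1 lie far above it.

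Dynein heavy chains lay lower in Cnot4-null PD for 8 of 9, with 5 called. Of all 15899 genes tested, 4949 had an estimate under 0 and 11.5% were called lower. Dnahc8 had 107 and 100.2 FPKM in the WT PD libraries against 52.9 and 28.1 FPKM in those of Cnot4-null, a log2 change of -1.40 ± 0.31 (limma adjusted p = 0.00915), or -2.06 relative to the median of all genes. Dnahc7b, an inner arm chain, had 27.8 and 26.9 FPKM in the WT PD libraries against 14.3 and 9.84 FPKM in those of Cnot4-null (-1.14 ± 0.26, adjusted p = 0.0106). In both genes the groups do not overlap and the Cnot4-null libraries differ by more than the WT libraries. Dnahc6 (-1.11), Dnahc1 (-0.91) and Dnahc7a (-0.87) were also called, and Dnahc7a and Dnahc7b share 30.0% and 1.37% of their stretches of 50 bases, the first in a partial gene model of 5 exons, so the value of Dnahc7a is uncertain. The adjusted p without WT PD library 1 and without WT PD library 2 was 0.07 and 0.0612 for Dnahc8 and 0.082 and 0.0757 for Dnahc7b, and from 0.0805 to 0.173 for Dnahc6, Dnahc1 and Dnahc7a. Without Cnot4-null PD library 2, 3 heavy chains were called, and the adjusted p was 0.1 for Dnahc1 and 0.0597 for Dnahc7a.

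Of the heavy chains known from motile cilia, Dnahc11 had 0.526 and 0.330 FPKM in the WT PD libraries against 1.32 and 1.38 FPKM in those of Cnot4-null (0.72, adjusted p = 0.102), and its estimate turned to the other sign after quantile normalization (-0.64). Dnahc9 was listed at 0 in WT PD library 1 and had 0.0432 FPKM in library 2, against 0.560 and 0.627 FPKM in Cnot4-null PD, and Dnahc5 had 0.0249 and 0.0152 FPKM against 0.322 and 0.196 FPKM. The Cnot4-null values were the higher in all 3 genes, as in 58.2% of all genes tested. They stayed at or under 1.38 FPKM, and Dnahc9 and Dnahc5 did not pass the filter. In the fit without a filter both were called higher (0.64, adjusted p = 0.00216, and 0.30, adjusted p = 0.0284).

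Intermediate and light chains were called lower for 4 of 5, against 11.5% of all genes tested. Dnaic2 had 28.9 and 24.4 FPKM in the WT PD libraries against 16.0 and 3.26 FPKM in those of Cnot4-null, the largest estimate of the subgroup at -1.70 ± 0.59 (adjusted p = 0.045). Its Cnot4-null libraries lie far apart, and the change was -0.70 (adjusted p = 0.114) without library 2. Dnaic1 had 57.0 and 55.5 FPKM in the WT PD libraries against 36.4 and 20.2 FPKM in those of Cnot4-null (-1.03 ± 0.33, adjusted p = 0.0333). Dnalc4, the light chain with the highest LZ levels, had 81.9 and 75.3 FPKM in the WT PD libraries against 58.4 and 36.7 FPKM in those of Cnot4-null (-0.75, adjusted p = 0.0416). Dnalc1 was called (-0.96) and Dnali1 was not, with 135 and 125 FPKM against 99.6 and 45.7 FPKM (-0.94, adjusted p = 0.116). All 4 calls were lost without WT LZ library 1, WT LZ library 2, WT PD library 1, WT PD library 2 or Cnot4-null PD library 2, with adjusted p from 0.0541 to 0.181, and those of Dnaic2, Dnalc1 and Dnalc4 without either Cnot4-null LZ library, with 0.0618 to 0.0831. Of the 15 alternatives 4 kept the call of Dnaic2, 5 that of Dnalc1, 6 that of Dnalc4 and 8 that of Dnaic1. All 5 estimates were under 0 as deposited and after both rescalings. As deposited, 4949 of all 15899 genes tested had an estimate under 0.

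Tektins were not called at PD, with 0 of 5 past the adjusted threshold and 1 at an unadjusted p under 0.05 (limma). The smallest adjusted p was 0.0552, for Tekt5, which had 19.7 and 16.7 FPKM in the WT PD libraries against 8.24 and 1.76 FPKM in those of Cnot4-null (-1.92). Tekt1 had 394 and 312 FPKM in the WT PD libraries against 255 and 100.3 FPKM in those of Cnot4-null (-1.13, adjusted p = 0.106), and Tekt3 had 181 and 151 FPKM against 101 and 40.3 FPKM (-1.36, adjusted p = 0.11). In these 3 the groups do not overlap but Cnot4-null library 2 lies well below library 1. Tekt2 had 56.4 and 45.6 FPKM in WT PD and 91.9 and 33.0 FPKM in Cnot4-null PD (0.12, adjusted p = 0.857, and -0.30 after rescaling to equal medians). Tekt4 had 61.7 and 42.7 FPKM against 62.6 and 13.5 FPKM (-0.78, adjusted p = 0.349), and in both genes the Cnot4-null values enclose the WT values. Without Cnot4-null PD library 1, 3 tektins were called lower, Tekt1 (-1.80), Tekt4 (-1.85) and Tekt5 (-2.79).

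Radial spoke genes had the lowest median of the 8 subgroups, -1.38, with 4 of 5 called lower, against 11.5% of all genes tested. Rsph1 had 3406 and 3091 FPKM in the WT PD libraries against 1784 and 701 FPKM in those of Cnot4-null (-1.54 ± 0.44, adjusted p = 0.0231), or -2.20 relative to the median of all genes. Rsph9 had 373 and 338 FPKM in the WT PD libraries against 200.1 and 91.9 FPKM in those of Cnot4-null (-1.38, adjusted p = 0.046). Rsph6a was not called, with 101 and 90.3 FPKM against 74.9 and 27.8 FPKM (-1.05, adjusted p = 0.17). In all 3 the groups do not overlap and Cnot4-null library 2 is the lowest. Rsph3a (-1.52) and Rsph3b (-1.09) were called, but they share 68.3% and 71.8% of their stretches of 50 bases, so their values are uncertain. The adjusted p of Rsph1 was 0.0502 without WT LZ library 1, 0.112 without WT PD library 1, 0.0916 without WT PD library 2 and 0.0921 without Cnot4-null PD library 2, and that of Rsph9 was from 0.0803 to 0.277 without Cnot4-null LZ library 1, Cnot4-null LZ library 2 or any of the same 3 PD libraries. For Rsph3a and Rsph3b it was from 0.0556 to 0.237 without any 1 library but Cnot4-null PD library 1. Of the 15 alternatives, which also vary the filter, the pseudocount, the scaling and the model, 5 kept the call of Rsph9 and 4 each those of Rsph3a and Rsph3b.

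Both IFT-A subunits were called lower, against 11.5% of all genes tested. Ift140 had 64.1 and 60.8 FPKM in the WT PD libraries against 39.0 and 20.7 FPKM in those of Cnot4-null (-1.11 ± 0.30, adjusted p = 0.0179). Ift122 had 44.7 and 42.8 FPKM in the WT PD libraries against 28.0 and 17.6 FPKM in those of Cnot4-null (-0.94 ± 0.30, adjusted p = 0.0327). The genotypes do not overlap in either gene. The adjusted p was 0.102 and 0.0882 for Ift140 and 0.147 and 0.128 for Ift122 without WT PD library 1 and without WT PD library 2, and 0.142 for Ift122 without Cnot4-null PD library 2.

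IFT-B held the fall that every alternative kept. Ift80, on chromosome 3 of mm9 (chr3:68696421-68808492), had LZ levels of 12.2 and 12.7 FPKM (WT) and 14.5 and 7.99 FPKM (Cnot4-null), and PD levels of 55.6 and 59.2 FPKM (WT) and 19.7 and 14.6 FPKM (Cnot4-null). It stood near its LZ level in Cnot4-null PD, and its change between the genotypes was -1.70 ± 0.29 (adjusted p = 0.00326), or -2.36 relative to the median of all genes, and was called in 15 of 15 alternatives. Ift74, which with Ift20 has the highest levels, had 292 and 287 FPKM in WT PD against 202 and 107 FPKM in Cnot4-null PD (-0.97, adjusted p = 0.0338). Ift20 had 288 and 289 FPKM against 209 and 138 FPKM (-0.76, adjusted p = 0.0288). Ift46 (-1.23) and Ift52 (-0.87) were also called, and the other 5 had estimates from -0.85 (Ift57) to -0.40 (Ift27). All 10 estimates were under 0 as deposited and after both rescalings. As deposited, 4949 of all 15899 genes tested had an estimate under 0, and 11.5% were called lower. The calls of Ift74 and Ift20 were lost without either WT PD library, at adjusted p of 0.118 to 0.135, and without WT LZ library 1, WT LZ library 2, Cnot4-null LZ library 1 or Cnot4-null LZ library 2, at 0.0512 to 0.0598, and that of Ift74 without Cnot4-null PD library 2, at 0.104, and 7 of 15 alternatives kept that of Ift74 and 8 that of Ift20. Those of Ift46 and Ift52 were lost without either WT PD library, at 0.063 to 0.139, and that of Ift52 without Cnot4-null PD library 1, at 0.0623, and library 2, at 0.129.

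Of the 8 Bardet-Biedl genes 6 had estimates under 0 in Cnot4-null PD, against 4949 of all 15899 genes tested. Of the 8, 3 were called lower and 0 higher, with 1 higher at an unadjusted p under 0.05 (limma). Of all genes tested 11.5% were called lower and 41.6% higher. Bbs7 had 38.0 and 41.1 FPKM in the WT PD libraries against 22.5 and 15.4 FPKM in those of Cnot4-null (-1.05 ± 0.24, adjusted p = 0.00996). Bbs4, another BBSome subunit, had 25.1 and 22.1 FPKM and 14.4 and 10.6 FPKM in the same groups (-0.88 ± 0.25, adjusted p = 0.0209). The genotypes do not overlap in either gene. Bbs10, a chaperonin-like protein needed for BBSome assembly, had the largest fall (-1.10 ± 0.28, adjusted p = 0.0152). Bbs5 and Bbs12 had estimates above 0, Bbs5 with 14.9 and 17.2 FPKM in WT PD and 42.8 and 18.4 FPKM in Cnot4-null PD (0.78, adjusted p = 0.188), and Bbs12 with 1.08 and 0.712 FPKM and 3.55 and 9.79 FPKM (1.89, adjusted p = 0.057, and 0.0244 and 0.0248 without WT LZ library 1 and without WT LZ library 2). The adjusted p without WT PD library 1 and without WT PD library 2 was 0.0607 and 0.0796 for Bbs7, 0.127 and 0.0819 for Bbs4 and 0.0878 and 0.0993 for Bbs10, and without Cnot4-null PD library 2 it was 0.072 for Bbs4.

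Of the 7 outer dense fibre genes tested, 3 were called higher in Cnot4-null PD and 0 lower, and 0 were lower at an unadjusted p under 0.05 (limma), where 41.6% of all genes tested were higher. Odf4, Odf2l and Odf2 had estimates under 0. Odf1 (chr15:38148958-38156490 of mm9) had LZ levels of 11.7 and 19.4 FPKM (WT) and 23.5 and 11.6 FPKM (Cnot4-null), and PD levels of 7.82 and 12.9 FPKM (WT) and 184 and 364 FPKM (Cnot4-null). Odf3l1 had LZ levels of 2.49 and 5.54 FPKM (WT) and 0.760 and 0.504 FPKM (Cnot4-null), and PD levels of 3.66 and 4.15 FPKM (WT) and 46.2 and 37.3 FPKM (Cnot4-null). In both genes the Cnot4-null PD values are far above the other 6, and the changes were 4.55 ± 0.47 (adjusted p = 4.27e-04) for Odf1 and 3.12 ± 0.34 (adjusted p = 5.18e-04) for Odf3l1, or 3.89 and 2.46 relative to the median of all genes. Odf3 had 7.47 and 6.19 FPKM in the WT PD libraries against 70.7 and 53.8 FPKM in those of Cnot4-null (3.01 ± 0.74, adjusted p = 0.0129), and its adjusted p was 0.0649, 0.0789, 0.082 and 0.0732 without WT PD library 1, WT PD library 2, Cnot4-null PD library 1 and Cnot4-null PD library 2. Odf1 and Odf3l1 were called in 15 of 15 alternatives.

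The fibre genes that rose with stage in WT were not among those 3. Odf4 had 288 and 276 FPKM in the WT PD libraries against 184 and 98.3 FPKM in those of Cnot4-null (-1.06, adjusted p = 0.251, and 0.0431 and 0.0429 without WT LZ library 1 and without WT LZ library 2). Odf2 had 460 and 380 FPKM in the WT PD libraries against 629 and 228 FPKM in those of Cnot4-null, so that the Cnot4-null values enclose the WT values (-0.14, adjusted p = 0.789, and 0.29 after quantile normalization). Its direction rests on which Cnot4-null PD library is used, with -0.87 (adjusted p = 0.0104) without library 1 and 0.59 (adjusted p = 0.0429) without library 2. Odf3b passed the filter through Cnot4-null PD library 1 alone, at 3.71 FPKM, was listed at 0 in Cnot4-null PD library 2 and was not called (1.02, adjusted p = 0.205).

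Between the genotypes at PD, markers of spermatids moved the same way as Odf1, Odf3 and Odf3l1. Within Cnot4-null PD, Odf1 was higher in library 2 (184 and 364 FPKM), where the summed markers, Odf3 and Odf3l1 were lower. All 6 spermatid markers were higher in Cnot4-null PD, with a summed level of 399 and 252 FPKM in WT PD and 15742 and 7089 FPKM in Cnot4-null PD, and of 1835 and 1497 FPKM in WT LZ and 4043 and 710 FPKM in Cnot4-null LZ. The most abundant, the protamine gene Prm1, had 176 and 74.8 FPKM in the WT PD libraries against 7592 and 2949 FPKM in those of Cnot4-null, and no spermatid marker of the list was at 0 in Cnot4-null PD. Their part in the result was not tested. The 8 genes of the fibrous sheath, which wraps the principal piece of the tail, had 6 called higher in Cnot4-null PD, 0 lower, and 0 lower at an unadjusted p under 0.05 (limma), against 41.6% of all genes tested higher and 11.5% lower. Akap4, its main scaffold, had 4.21 and 3.54 FPKM in the WT PD libraries against 87.0 and 41.5 FPKM in those of Cnot4-null (3.65, adjusted p = 0.00211). Ropn1l and Spa17, the sheath genes with the highest levels, were not called (-0.89, adjusted p = 0.158, and -0.59, adjusted p = 0.327). Ropn1l had 2705 and 2745 FPKM in the WT PD libraries against 2204 and 987 FPKM in those of Cnot4-null, and Spa17 had 2504 and 2461 FPKM against 2491 and 1094 FPKM. The sheath genes called numbered 4 without WT PD library 1 and 3 without WT PD library 2 or without Cnot4-null PD library 1.

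**Figure D4:**
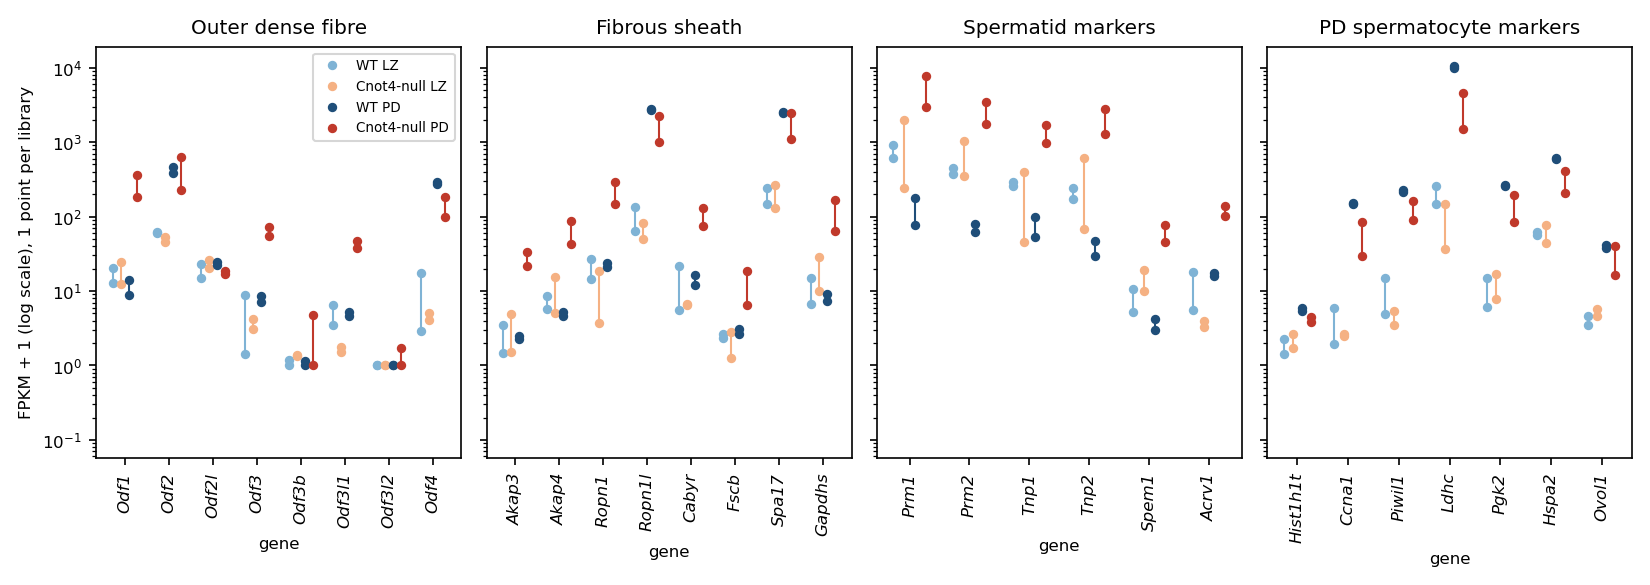
FPKM + 1 on a logarithmic vertical axis of outer dense fibre genes, fibrous sheath genes, spermatid markers and PD spermatocyte markers (horizontal axes), with 1 point per library and a line joining the 2 libraries of a group. Odf1, Odf3, Odf3l1 and Akap4 stand highest in Cnot4-null PD, as do the 6 spermatid markers, while Odf4 and the PD spermatocyte markers have their highest means in WT PD.

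All 7 markers of PD spermatocytes were called higher in PD than in LZ in WT, where they summed to 232 and 336 FPKM in WT LZ and to 11870 and 11005 FPKM in WT PD. In Cnot4-null they summed to 250 and 94.2 FPKM at LZ and to 5478 and 1897 FPKM at PD, and 6 of 7 were called higher at PD than at LZ. Between the genotypes at PD 1 of 7 was called lower, Hspa2 (-1.06, adjusted p = 0.049), and 0 higher, with a median change of -1.01, against 11.5% and 41.6% of all genes tested. The most abundant was Ldhc (adjusted p = 0.0568). On the scale of FPKM + 1, the median marker stood at 68.8% and 33.8% of its WT PD mean in the Cnot4-null PD libraries 1 and 2. For the median member the values were 69.8% and 45.2%. The call for Hspa2 was lost without any 1 of 7 libraries, with adjusted p from 0.0537 to 0.252, and without Cnot4-null PD library 1, the other library, 4 of the 7 markers were called lower. Their part in the result was not tested.

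Markers of other cells were compared between the PD groups, where 41.6% of all genes tested were higher in Cnot4-null and 11.5% lower. Of the markers counted as higher, Hsd3b1 and Lhcgr (Leydig), Myh11 and Des (myoid), Gata4 (Sertoli) and Csf1r (macrophage) passed the filter through Cnot4-null libraries alone, and without such genes the counts were 4 of 4, 2 of 2, 2 of 3 and 2 of 3. Leydig cell markers were higher for 6 of 6, with summed levels of 116 and 7.07 FPKM in WT PD and 10021 and 22204 FPKM in Cnot4-null PD, led by Insl3, and at no more than 19.0 FPKM in any LZ library. Spermatogonial markers were higher for 6 of 6 (18.2 and 12.4 FPKM against 283 and 394 FPKM, led by Uchl1, with 644, 618, 414 and 585 FPKM in the LZ libraries of WT and Cnot4-null), and myoid cell markers for 4 of 4 (3.75 and 2.33 FPKM against 61.1 and 285 FPKM, led by Acta2, with 1.88 to 5.15 FPKM at LZ). Sertoli cell markers were higher for 3 of 5 (8.83 and 16.5 FPKM against 99.9 and 205 FPKM, led by Clu, with 65.7, 58.9, 6.62 and 10.1 FPKM at LZ), of which Wt1 turned to -0.15 after quantile normalization, and Amh was listed at 0 in 7 of 8 libraries. Macrophage markers were higher for 3 of 5 (1.71 and 1.46 FPKM against 17.3 and 84.9 FPKM, led by Lyz2, with 24.8, 0.915, 5.94 and 1.65 FPKM at LZ). Of 6 LZ spermatocyte markers 4 were higher (Stra8, Prdm9, Dmc1 and Rec8) and 2 lower (Spo11 and Sycp3), and Prdm9 turned to -0.073 after quantile normalization. With stage in WT those 4 were called lower at PD than at LZ. Spo11 was called higher at PD (2.7, limma adjusted p = 0.00159), and Sycp3 was not called (0.05). Summed levels of the 6 were 930 and 955 FPKM in WT PD against 777 and 462 FPKM in Cnot4-null PD, led by Sycp3. At LZ they were 1104 and 1351 FPKM (WT) and 2541 and 1388 FPKM (Cnot4-null). Without WT PD library 2, 1 Sertoli cell marker was called, without either WT PD library 2 myoid markers were, and the calls of macrophage markers were lost without either WT PD library and numbered 1 without Cnot4-null LZ library 1, Cnot4-null LZ library 2 or Cnot4-null PD library 2. The 2 lower calls of LZ markers were lost without WT PD library 1, WT PD library 2 or Cnot4-null PD library 2, and numbered 1 without either WT LZ library. The part of these cells in the members' values was not tested.

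Markers of ciliated epithelium, which shares the axoneme genes, were higher for 4 of 4 in Cnot4-null PD, but Foxj1 and Scgb1a1 passed the filter through Cnot4-null PD alone, so that 2 of 2 are left, against 41.0% of all genes that passed through both genotypes. They summed to 1.70 and 1.98 FPKM in WT PD and to 22.6 and 29.0 FPKM in Cnot4-null PD, led by Tppp3, and to between 9.96 and 12.5 FPKM at LZ. Scgb1a1, of secretory cells in such epithelia, was listed at 0 in every library but the Cnot4-null PD libraries, at 1.18 and 4.30 FPKM. Foxj1, the regulator of motile cilia, was listed at 0 in WT PD library 1 and had 0.198 FPKM in library 2, against 3.07 and 6.61 FPKM in Cnot4-null PD (2.35, adjusted p = 0.00175). Dnahc5, Dnahc9 and Dnahc11 also had both Cnot4-null PD values above both WT PD values, as did 58.2% of all genes tested. Dnahc11 was higher in every LZ library, at 1.58 to 3.42 FPKM, than in Cnot4-null PD, at 1.32 and 1.38 FPKM. Without WT PD library 2, 2 of the 4 markers were called. Their part in the result was not tested.

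Genes of the same machines under other symbols were read from 7 lists of 81 genes, of which 71 were in the files and 70 were tested. In WT, 49 of the 70 rose with stage and 6 fell, and in Cnot4-null 54 rose and 2 fell. At PD 28 were lower in Cnot4-null and 13 higher. Of the 64 that passed the filter through both stages, 45 rose and 6 fell in WT and 48 rose and 2 fell in Cnot4-null. Of all genes tested 21.6% rose and 36.2% fell with stage in WT, 27.8% rose and 18.2% fell in Cnot4-null, and 11.5% were lower and 41.6% higher in Cnot4-null PD. Of the 13, 6 were the fibrous sheath genes already given.

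Of the 12 tested genes that dock or assemble the dynein arms, 5 were lower in Cnot4-null PD and 0 higher (0 higher also at an unadjusted p under 0.05, limma), with a median of -0.86, against 11.5% and 41.6% of all genes tested. Zmynd10, a cytoplasmic assembly factor, was called (-1.03, adjusted p = 0.0405), and Lrrc50, another, was not (-0.63, adjusted p = 0.158). Of the 14 genes of the nexin link, the ruler and the central pair, all 14 rose with stage in WT (11 of 11 that passed through both stages) and 8 were lower in Cnot4-null PD, with a median of -1.16. Spag6, of the central pair, had 342 and 354 FPKM in the WT PD libraries against 109 and 54.9 FPKM in those of Cnot4-null (-2.16, adjusted p = 0.00625), with no overlap. Ccdc39, part of the ruler that spaces the arms along the doublet, fell by 1.13 (adjusted p = 0.0155). The 5 calls of assembly genes were lost without either WT PD library, and they numbered 1 without Cnot4-null PD library 2, 2 without either WT LZ library and 9 without Cnot4-null PD library 1, among them Lrrc50 (adjusted p = 0.036). The adjusted p of Zmynd10 was from 0.064 to 0.182 without any 1 library but Cnot4-null PD library 1. Nexin, ruler and central pair genes called lower numbered 3 without WT PD library 1, 2 without WT PD library 2 and 5 without Cnot4-null PD library 2, and the adjusted p of Ccdc39 was 0.0827 and 0.0862 without WT PD library 1 and 2.

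Among 12 transport genes under other symbols, which are subunits apart from Tulp3, 4 were lower in Cnot4-null PD and 1 higher, against 11.5% and 41.6% of all genes tested. The 1 was Tulp3 (1.13), which turned to -0.29 after quantile normalization. Hspb11 and Rabl5, the subunits with the highest levels, were not called (-1.08, adjusted p = 0.0542, and -1.14, adjusted p = 0.0576), and both were without Cnot4-null PD library 1 (adjusted p = 0.0284 and 0.0029). Of 9 motor genes 4 were lower and 1 higher. Tctex1d2, a light chain of the return dynein, had 1352 and 1338 FPKM in the WT PD libraries against 648 and 212 FPKM in those of Cnot4-null (-1.85, adjusted p = 0.0151), and Wdr34, an intermediate chain of that motor, was not called (-0.18, adjusted p = 0.652). Kif17, a kinesin of some cilia, was the motor gene called higher, with 0.978 and 0.896 FPKM in WT PD and 9.48 and 9.38 FPKM in Cnot4-null PD (2.43, adjusted p = 4.06e-04), and it was chosen after its values were seen. Of 6 partners of the BBSome 3 were lower and 1 higher, with Lztfl1, a regulator of its traffic, at -1.65 (adjusted p = 0.00465) and Bbip1, a subunit, at -1.14 (adjusted p = 0.0156). Without WT PD library 1 and without WT PD library 2 the 4 lower calls of motor genes were lost and 1 BBSome partner was called lower, and the adjusted p was 0.0788 and 0.0779 for Tctex1d2, 0.0738 and 0.0879 for Bbip1 and 0.0968 and 0.0716 for Tulp3. Without Cnot4-null PD library 2, 2 motor genes were lower and 2 higher, and the transport subunits called lower numbered 2 without WT PD library 2 and 8 without Cnot4-null PD library 1.

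Of 9 transcription regulators tied to ciliary or spermatocyte genes, 4 were lower and 4 higher in Cnot4-null PD, against 11.5% and 41.6% of all genes tested. Tcfl5, a basic helix-loop-helix factor of spermatocytes, had LZ levels of 49.8 and 36.1 FPKM (WT) and 43.5 and 51.6 FPKM (Cnot4-null), and PD levels of 270.4 and 294 FPKM (WT) and 123 and 64.4 FPKM (Cnot4-null) (-1.65, adjusted p = 0.00537). Crem, a master regulator of spermatid genes, had 158 and 157 FPKM in the WT PD libraries against 98.7 and 62.8 FPKM in those of Cnot4-null (-0.99, adjusted p = 0.0183). Rfx2, which binds the X-box in the testis, had 85.9 and 78.8 FPKM and 51.0 and 31.6 FPKM in the same groups (-1.02, adjusted p = 0.022). In these 3 the genotypes do not overlap, and their levels in Cnot4-null PD stay above those of LZ. Those called higher were Foxj1 (2.35), which passed the filter through Cnot4-null alone, Rfx1 (2.33), Sox5 (1.90) and Rfx3 (0.84), and Rfx3 turned to -0.60 after quantile normalization. Rfx1, Rfx2, Rfx3 and Sox5 were named after their values were seen. Without WT PD library 1 and without WT PD library 2 the adjusted p was 0.0924 and 0.0906 for Crem and 0.121 and 0.0929 for Rfx2, and without Cnot4-null PD library 2 it was 0.0649 and 0.0881, with 1 regulator called lower without any of these 3. The adjusted p of Rfx3 was 0.176, 0.126 and 0.0552 without WT PD library 1, WT PD library 2 and Cnot4-null PD library 1.

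**Figure D5:**
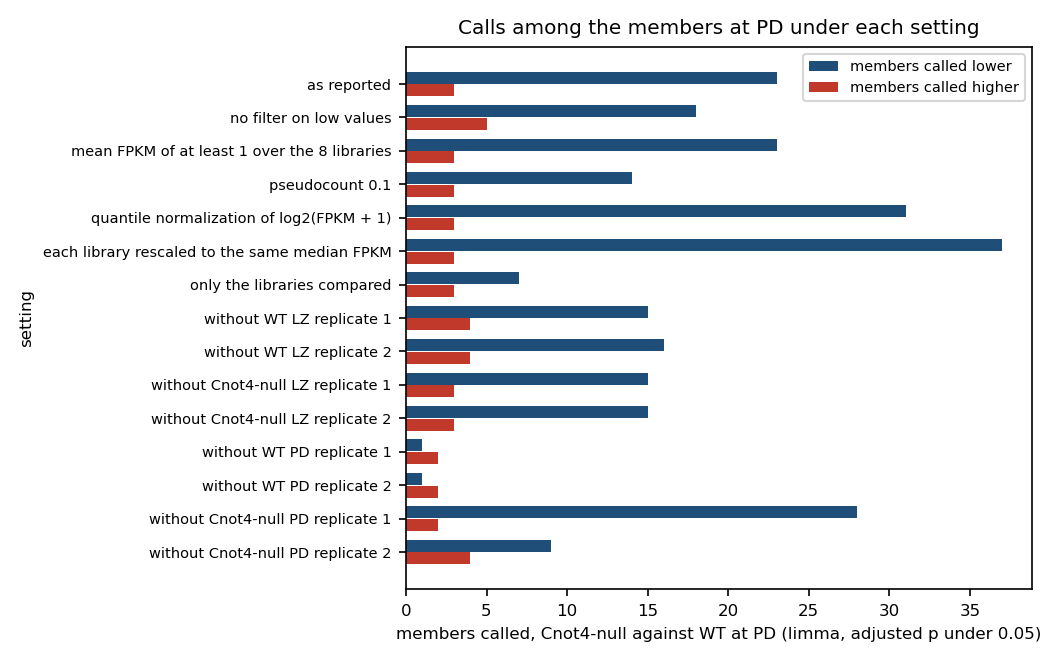
Number of members called in Cnot4-null against WT at PD (horizontal axis, limma, adjusted p under 0.05) under each setting (vertical axis), with blue bars for lower and red for higher. The blue bar is 23 as reported, runs from 7 to 37 under the settings that keep all libraries of the comparison, and is 1 without either WT PD library.

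Between WT and Cnot4-null cells at LZ, 0 of the 51 members were called in either direction (limma), while 0.0692% of all genes tested were called higher and 0.0252% lower. At an unadjusted p under 0.05 there were 6 members, all lower in Cnot4-null, against 3.63% of all genes lower and 2.74% higher, namely Odf3l1 (-1.55, adjusted p = 0.462), Rsph9 (-1.67), Tekt1 (-1.81), Tekt3 (-1.56), Dnahc8 (-0.91) and Bbs4 (-0.74). Tekt1 had 9.45 and 24.9 FPKM in the WT LZ libraries and 3.60 and 3.80 FPKM in the Cnot4-null LZ libraries, and Dnahc8 had 2.69 and 2.41 FPKM against 1.09 and 0.706 FPKM. The groups do not overlap in these. Of the 51 members 17 did not overlap in that direction and 4 in the other, against 18% and 18.2% of all genes. Library 1 held the higher value for 17 of 51 members in WT LZ, against 51.2% of all genes tested. In Cnot4-null LZ it did so for 36 of 51, against 59.8%. The 6 members listed above were named after their values were seen. The median log2 change was -0.18 over the members and 0.00 over all genes tested. Of the 70 genes of the 7 lists 0 were called and 2 had an unadjusted p under 0.05 (limma).

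The genotype effect differed between the stages for 4 of the 51 members, with 2 more positive at PD and 2 more negative, against 26% and 3.97% of all genes tested (limma's interaction test). The effect at PD minus that at LZ was 4.67 ± 0.48 for Odf3l1 (adjusted p = 0.00169) and 4.43 ± 0.66 for Odf1 (adjusted p = 0.00436), and both were called in 14 of 14 alternatives. It was -1.52 ± 0.41 for Ift80 (adjusted p = 0.0326) and -1.50 ± 0.34 for Bbs7 (adjusted p = 0.0174). Ift80 thus had a log2 genotype change of -1.70 at PD and -0.18 at LZ. The median difference was -0.49 over the members and 0.64 over all genes tested, and 11 members had an unadjusted p under 0.05, 3 positive and 8 negative, against 35.7% and 8.34% of all genes. The other 21 members called lower in Cnot4-null PD were not called in this test, so a difference between the stages was not shown for them. The call for Bbs7 was lost without WT LZ library 2, Cnot4-null LZ library 1, Cnot4-null LZ library 2, WT PD library 1 or WT PD library 2 (adjusted p from 0.0504 to 0.0923) and that for Ift80 without any 1 library but Cnot4-null LZ library 2 and Cnot4-null PD library 1 (0.0738 to 0.125). Members called more negative at PD numbered 18 without Cnot4-null PD library 1 and 1 without WT LZ library 1, Cnot4-null LZ library 2 or Cnot4-null PD library 2, and both such calls were lost without any of the other 4 libraries. Without Cnot4-null PD library 2, 4 members were called more positive. Quantile normalization moved the median difference of all genes to -0.13, with 9 members called more negative, and rescaling moved it to 0.38, with 15. Of the calls over all genes 86.8% were positive as deposited, 44.1% after quantile normalization and 63.3% after rescaling.

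The members are spread over 17 chromosomes of mm9, and 0 of the 55 lie on X or Y, which are silenced in pachytene. Their genes differ widely in size. Dnahc8 spans chr17:30761299-31012209 with 93 exons and 14193 coding bases, the longest coding sequence of the heavy chains. It lies close to Rsph1, which is at chr17:31391964-31414301 with 9 exons. Odf1 has 2 exons, Odf3 (chr7:148033704-148036917) has 6 and Odf3l1 (chr9:56696466-56699770) has 5, while Ift80 has 20 and Bbs7 (chr3:36472064-36512399) has 19.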

How the data were processed

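RNA-seq values of 8 libraries were used, 2 in each of 4 groups. The authors aligned trimmed reads to mm9 with TopHat2 2.1.1 and passed those with a unique position to Cufflinks 2.2.1, with UCSC gene models, and the deposited FPKM are 1 value per gene symbol and library. The methods describe Smart-Seq2 from sorted cells and the labels a TruSeq preparation of total RNA, and which was used was not settled. Genes above 1 FPKM in at least 1 library were kept. The authors used the same level in at least 1 sample, but they averaged replicates, which was not done here. log2(FPKM + 1) of all 8 libraries was fitted in 1 limma 3.58.1 model with a trend (R 4.3.3, 4 residual degrees of freedom, two-sided tests), with p-values adjusted by Benjamini-Hochberg over 15899 genes in each of 5 comparisons. A gene is called at an adjusted p under 0.05. Python 3.11.15, numpy 2.4.6, pandas 2.3.3 and matplotlib 3.10.9 were used elsewhere. The fit was tested on simulated data, and no outcome of that test is given here. Positions and exons come from GENCODE vM1 (mm9 assembly), and shared stretches are 50 bases long.

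The members and lists were chosen with earlier results of these data known. Named by rule were Cnot4, the 2 members of each subgroup with the highest mean FPKM and those with the largest rise and fall called at PD, members called at LZ, the 3 largest rises and falls with stage in WT and of each sign in the interaction, the 2 genes of each list with the highest mean FPKM, and the markers. Members outside the rule, and Akap4, Foxj1, Kif17 and Tulp3, were named after their values were seen. The lists are dynein arm docking and assembly, nexin link, ruler and central pair, transport genes under other symbols, transport motors, BBSome partners, fibrous sheath and transcription regulators, and 9 lists of cell type markers. Alternatives were no filter, a mean FPKM of at least 1, a pseudocount of 0.1, quantile normalization, rescaling to the same median, only the libraries compared, a replicate block and each library left out in turn.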

Additional observations from a re-analysis of the deposited data

Results flagged for a closer look

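The genotype effect differed between the PD and LZ stages in 4 of 51 members by limma's interaction test, 2 positive and 2 negative, against 26% and 3.97% of all genes tested, and leaving out 1 library gave 0 to 18 negative calls. The negative share is near that of all genes, and the call of Bbs7 was lost without any 1 of 5 libraries and that of Ift80 without any 1 of 6. On the scale of log2(FPKM + 1), the effect at PD minus that at LZ was 4.67 for Odf3l1 and 4.43 for Odf1, whose Cnot4-null PD libraries stood above all other libraries. It was -1.52 for Ift80 and -1.50 for Bbs7, whose Cnot4-null PD libraries stood below the WT PD libraries. Spermatid markers summed to 15742 and 7089 FPKM in Cnot4-null PD and to 399 and 252 FPKM in WT PD. Markers of PD spermatocytes summed to 5478 and 1897 FPKM in Cnot4-null PD and to 11870 and 11005 FPKM in WT PD. The part of either marker list in the 4 values was not tested.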

How the results depend on the processing

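At PD, 23 members were lower, 3 higher, and their median minus that of all genes was -1.53. Without a filter 5 were higher, Dnahc5 and Dnahc9 in addition. With a pseudocount of 0.1, 14 were lower and the difference was -1.93, and with only the libraries compared 7 were lower, where fewer libraries leave fewer degrees of freedom. After rescaling to the same median 37 were lower, and quantile normalization gave a difference of -1.01. Leaving out 1 library gave 1 to 28 lower, 2 to 4 higher and a difference of -1.80 to -1.09. The replicate block gave 19 lower and 3 higher, but the numbers of the libraries pair nothing that the deviations show, with correlations between groups of -0.0651 to 0.194.

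For PD against LZ in WT the difference of medians was 2.22 without a filter, 3.37 with a pseudocount of 0.1 and 2.75 to 2.92 without 1 library, and 0 were lower after quantile normalization and 0 to 1 without 1 library. In Cnot4-null it was 2.54 with a pseudocount of 0.1 and 1.63 to 2.48 without 1 library, and 1 was lower after quantile normalization. In the interaction 9 were lower after quantile normalization, with a difference of -0.67, 15 after rescaling, and without 1 library 0 to 18 lower, 2 to 4 higher and -1.51 to -0.82.

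Of the named results Odf2 at PD (-0.14) ranged from -0.87 to 0.59 without 1 library, turning to 0.59 without Cnot4-null PD replicate 2, and Prdm9 turned to -0.073 and Wt1 to -0.15 after quantile normalization. Of the other values of named results under alternatives, 1149 kept direction and side of the threshold, 8 not called in either fit changed sign, 178 lost the call and 34 gained it. Of those lost, 34 and 37 were lost without WT PD replicate 1 and without WT PD replicate 2. The cause was not tested. The deposited values give no depth in reads, and 2 libraries per group limit every value.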
